A study of Mus musculus with 6 samples.

Results

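The genes described here are 35 genes of glucose transport, glycolysis and the response to low oxygen, chosen by symbol in the deposited count table and read in 6 libraries of cultured mouse spermatogonia. The table lists 32285 genes. The 35 symbols match 36 of its rows, because a second, nearly empty row also carries the symbol Aldoa. That row held 0 to 4 counts per library and was not tested, and Aldoa hereafter means the other row. All 35 genes passed the filter on low counts, as did 14814 genes in the whole table.

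The cells were GS cells, germline stem cell cultures derived from testis, in which spermatogonial stem cells multiply. The 3 control libraries have the genotype p57 flox/flox, with loxP sites in each copy of Cdkn1c, which encodes p57, an inhibitor of cyclin-dependent kinases. The 3 p57 KO libraries have the genotype p57 flox/flox-Cre. Per the labels' protocols, Cre was delivered with an adenovirus, the RNA was taken 2 days after infection, and a trypsin digest and a Sephadex column preceded the extraction. Both groups therefore share the floxed alleles and the column step, and the sources used here do not say whether control cells received a virus. The labels give BDF1 as the model and an age of 3 days for the mice, while the design text gives the strains C57BL/6 and 129 and an age of 10 days. Nothing in the labels says whether the replicates were separate cultures, so the p-values cover only the spread seen among these samples, possibly a technical one.

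Glycolysis splits glucose into pyruvate and yields ATP without oxygen. Glucose enters through GLUT transporters, hexokinase traps it as a phosphate ester, phosphofructokinase commits it to breakdown, and pyruvate is then reduced to lactate, which leaves through monocarboxylate transporters, or is passed to the mitochondrion. Hypoxia-inducible factors (HIFs) are dimers of an oxygen-regulated alpha subunit with ARNT. Prolyl hydroxylases mark the alpha subunits for destruction when oxygen is present. At low oxygen HIFs activate many genes of glucose use, mitophagy and vessel growth through hypoxia response elements, whose DNA core is ACGTG or GCGTG. Only ACGTG was searched for here, and it is called the core below. Spermatogonial stem cells in culture are known to rely strongly on glycolysis.

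The following sequences show where ACGTG lies in promoters of 5 members whose RNA differed between the groups. These 5 were picked from members that hold it, so that genes that rose and genes that fell can be set side by side. They are RefSeq promoter sequences (GRCm38, the assembly of mm10) and cover the 170 bases before the annotated start of transcription, 5′ to 3′ on the strand of the gene, with each ACGTG or its reverse complement CACGT in capitals. Where both overlap they form CACGTG, which is also the E-box letters bound by MYC and other factors. Slc2a1 (chr4:119108575-119108744, plus strand) and Bnip3 (chr7:138909507-138909676, minus strand) fell in p57 KO. Ankrd37 (chr8:45999851-46000020, minus strand), Ldha (chr7:46845634-46845803, plus strand) and Pgk1 (chrX:106186930-106187099, plus strand) rose.
Slc2a1: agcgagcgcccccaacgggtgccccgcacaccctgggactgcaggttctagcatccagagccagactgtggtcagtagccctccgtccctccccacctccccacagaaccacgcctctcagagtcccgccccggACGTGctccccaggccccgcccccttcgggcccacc
Bnip3: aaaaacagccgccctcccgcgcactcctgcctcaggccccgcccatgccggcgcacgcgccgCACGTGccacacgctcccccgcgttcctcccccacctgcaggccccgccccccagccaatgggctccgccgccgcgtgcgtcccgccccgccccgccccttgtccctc
Ankrd37: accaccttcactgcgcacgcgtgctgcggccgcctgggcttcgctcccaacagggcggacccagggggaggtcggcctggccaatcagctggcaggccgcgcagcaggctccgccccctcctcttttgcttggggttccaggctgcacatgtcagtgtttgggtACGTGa
Ldha: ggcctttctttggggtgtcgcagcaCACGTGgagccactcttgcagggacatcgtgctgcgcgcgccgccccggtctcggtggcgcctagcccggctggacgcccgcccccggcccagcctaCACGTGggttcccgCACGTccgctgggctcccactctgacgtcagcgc
Pgk1: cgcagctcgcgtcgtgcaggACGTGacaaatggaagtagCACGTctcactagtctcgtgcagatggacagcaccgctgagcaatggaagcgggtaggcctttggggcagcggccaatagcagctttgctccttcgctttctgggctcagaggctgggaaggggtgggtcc

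The core starts 36 bases before the start in Slc2a1, 108 in Bnip3 (inside CACGTG), 6 in Ankrd37 (which has another upstream of the stretch shown), 145, 48 and 34 in Ldha (the first 2 inside CACGTG), and 150 and 131 in Pgk1. RefSeq gives Ldha another start, at chr7:46847082 on the plus strand, whose window holds no core. The last 30 bases of that window lie in a GENCODE transcript of Ldha, and those of the window shown do not. RefSeq windows of 300 bases, 250 before and 50 after a start, were found for 31 of the 35 members, and 22 of the 31 held the core on either strand in at least 1 window. Over all 26994 genes with a window, 21.8% did. Among members with a window, 6 of 9 that rose, 2 of 3 that fell and 14 of 19 that were not called held it. The core was thus present among genes of all 3 kinds. Eno2, Tpi1 and Pfkl, which rose, and Pdk1, which fell, held none in any window. Ldha and Vegfa, which rose, held the core only in windows whose last 30 bases lie in no GENCODE transcript of the gene. The same holds for Hif1a and Pgam1, which were not called. A match is a description of the sequence and not a measured binding site.

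Depth did not separate the groups: the control libraries held 15662833 to 16979459 counts and the p57 KO libraries 15940375 to 17893671. The targeted gene was lower in p57 KO, with Cdkn1c at 19.9 to 21.4 CPM in control and 8.51 to 9.44 CPM in p57 KO (log2 fold change -1.22, SE 0.09, edgeR adjusted p = 4.07e-09). The remaining level was 0.429 of control, and the sources used here do not say which part of Cdkn1c is deleted, so that reads outside it cannot be told apart from cells without deletion. CPM here are read counts scaled to a common library size with TMM factors, and fold changes are p57 KO against control on the log2 scale. Fibroblast and feeder cell markers were also higher in p57 KO: their summed level was 956 to 1230 CPM in control and 1520 to 3020 CPM in p57 KO. Of the 23 markers, 20 had groups that did not overlap (39.2% of all tested genes), and 6 passed the test (26.1%, near the 23.3% of all tested genes). None of the 23 was at 0 in all 6 libraries, and Fap was at 0 in control replicate 1. The mean log2 CPM of these markers, called the fibroblast score here, was 3.30, 3.95 and 3.37 in control replicates 1, 2 and 3 and 4.24, 4.85 and 5.42 in p57 KO replicates 1, 2 and 3. Spermatogonial markers summed to 4220 to 4290 CPM in control and 3640 to 3840 CPM in p57 KO. They did not move as one: of 14, 9 fell, Itga6 rose (log2 fold change 0.12), and Ddx4, Uchl1, Lin28a and Cdh1 were not called. That is 71.4% called, against 23.3% of all tested genes. In bulk RNA, fewer cells of a type and less RNA per cell cannot be told apart. Markers of Leydig cells summed to 3.00 to 3.94 CPM over all libraries, mostly from Star (2.94 to 3.71 CPM), with Hsd3b1 at 0 in all 6. Those of haploid germ cells summed to 6.30 to 7.80 CPM, mostly from Spaca1 (3.94 to 5.17 CPM) and Tnp1 (1.58 to 2.71 CPM). Those of Sertoli cells summed to 33.7 to 39.7 CPM in control and 37.1 to 39.4 in p57 KO. Those of macrophages summed to 12.7 to 13.7 and 17.5 to 21.5 CPM, mostly from Cd68 (11.7 to 18.1 CPM over all libraries). Cd68 and Lyz2 rose, while Adgre1, Csf1r, Ptprc, Cd163 and C1qa were at 0.353 CPM or less and were not tested. Those of endothelial cells summed to 82.2 to 86.1 and 74.5 to 77.9 CPM, mostly from Kdr (54.3 to 66.3 CPM over all libraries). Of these, Kdr and Cdh5 fell (log2 fold change -0.19 and -0.6), Tek rose (0.52) and Pecam1 was not called (-0.02). The part of these other cell types in the results was not tested beyond the values given with the fibroblast score.

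Of the 35 members, 9 rose and 4 fell at an edgeR adjusted p under 0.05, which is 37.1%, and 22 were not called. Over all 14814 tested genes 23.3% were called, 11.6% higher and 11.6% lower. The median log2 fold change was 0.06 over the members and 0.00 over all tested genes. Among the 13 called members 3 changed by at least 1.5-fold: Eno2, Ankrd37 and Vegfa, all higher. Against a fold of 1.2 rather than no change, edgeR called 3 members, Ankrd37 and Vegfa higher and Epas1 lower, beside 3.17% of all tested genes. The other called members changed by less than 1.5-fold, and 17 of the 22 members that were not called had a 95% interval that lay within a 1.2-fold change in both directions. The rises comprised 7 of 16 glycolytic enzymes and 2 of 5 hypoxia targets, and the falls were those of a glucose transporter, a pyruvate dehydrogenase kinase, a hypoxia target and a HIF subunit.

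**Figure D1:**
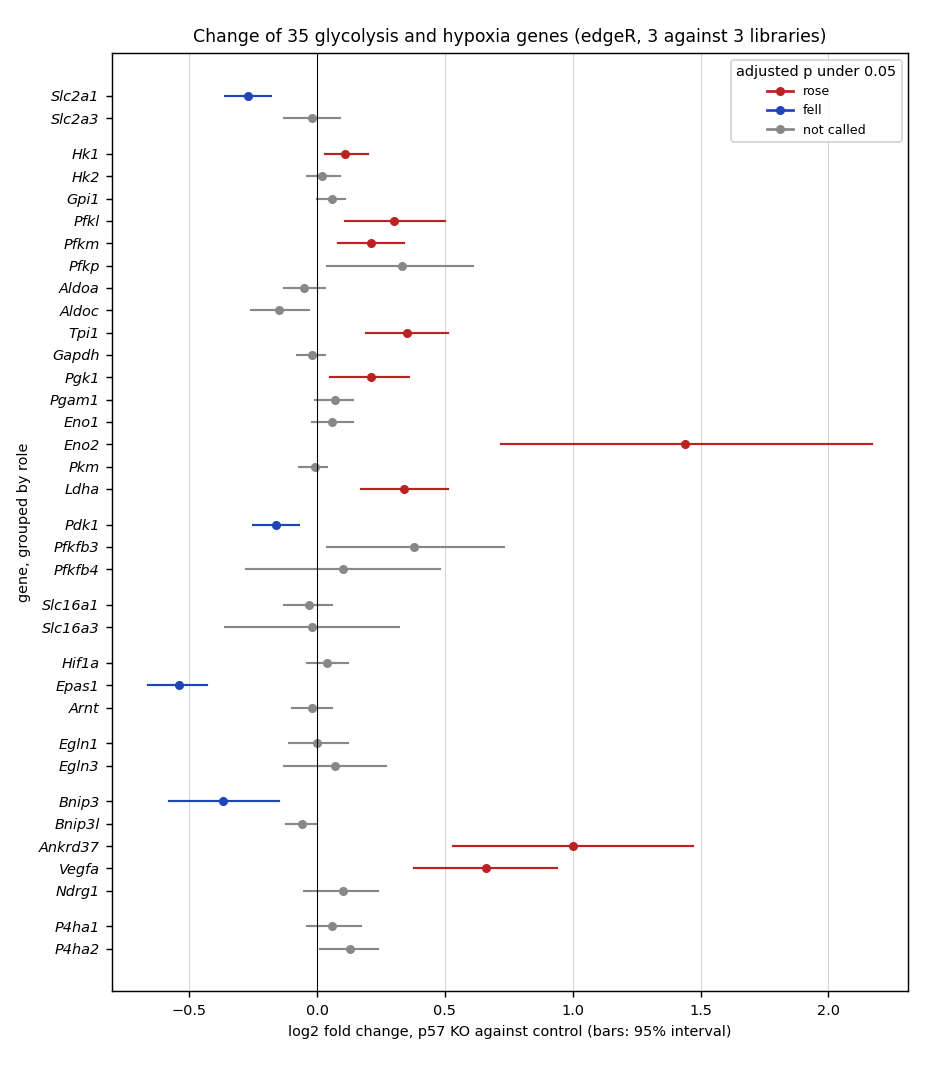
Log2 fold change of each member, p57 KO against control, with its 95% interval, grouped by role. Red genes rose, blue genes fell and grey genes were not called at an edgeR adjusted p under 0.05. Eno2, Ankrd37 and Vegfa lie farthest to the right, at 1.44, 1.0 and 0.66, and Epas1 farthest to the left, at -0.54.

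**Figure D2:**
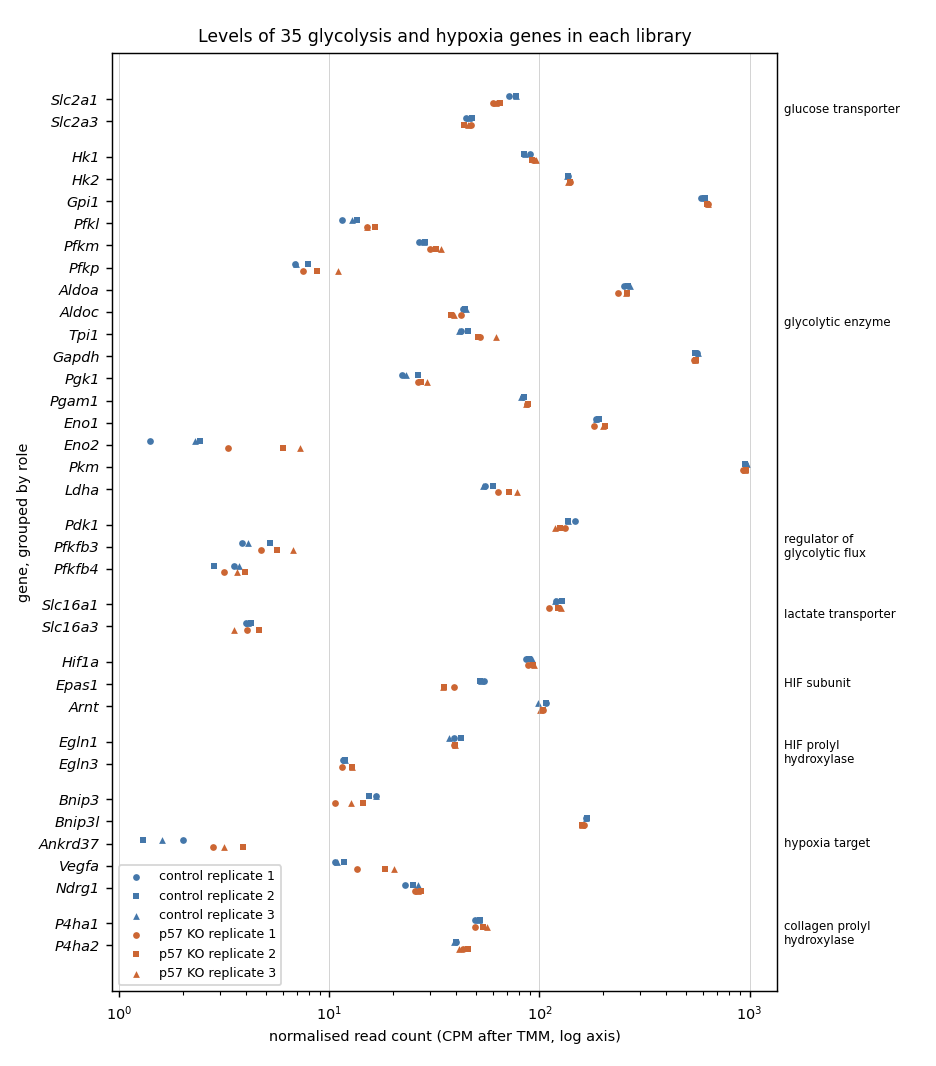
Normalised read count of each member in each of the 6 libraries, on a log axis, with control in blue, p57 KO in orange and a marker shape for each replicate. The groups of Eno2 (1.40 to 7.23 CPM) and Ankrd37 (1.29 to 3.90 CPM) do not overlap but are spread, and the points of Pkm, Gapdh and Hk2 nearly coincide.

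Of the 2 glucose transporters 1 fell. Slc2a1 encodes GLUT1, the transporter of basal glucose uptake in most cells, and a classical HIF target (chr4:119108711-119137983, plus strand). Its level was 71.8, 77.2 and 77.3 CPM in control and 60.2, 65.1 and 62.3 CPM in p57 KO. Every p57 KO library lay below every control library. The log2 change was -0.27 (SE 0.04, edgeR adjusted p = 0.000164). Slc2a3, the gene of the high-affinity transporter GLUT3, was at 44.6 to 47.5 CPM in control and 43.5 to 47.3 CPM in p57 KO, with overlapping groups and a log2 change of -0.02 (95% interval -0.13 to 0.09). Per kilobase of exon, Slc2a1 was the more abundant of the pair, with 21.5 against 6.37 CPM per kb in control and 17.8 against 6.27 in p57 KO.

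Of the hexokinases, which trap glucose in the cell, Hk2 was at 135 to 137 CPM in control and 137 to 139 CPM in p57 KO (log2 fold change 0.02, 95% interval -0.04 to 0.09). Hk1, the more widely expressed form, was at 90.5, 84.7 and 84.9 CPM in control and 92.7, 91.9 and 96.7 CPM in p57 KO, which do not overlap, and rose by 0.11 on the log2 scale (SE 0.04, edgeR adjusted p = 0.0414). Its call was lost in 4 of the 6 fits that left out 1 library, with adjusted p up to 0.163, and in DESeq2 (0.15). Gpi1, which isomerises glucose 6-phosphate, was among the 5 members whose groups did not overlap although they were not called, at 590 to 616 CPM in control and 625 to 637 CPM in p57 KO (log2 fold change 0.06, edgeR adjusted p = 0.124).

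Phosphofructokinase, the committing step, is built from 3 kinds of subunit, liver, muscle and platelet. Pfkl, the liver form, had 11.5, 13.6 and 12.8 CPM in control and 15.1, 16.5 and 15.1 CPM in p57 KO. Each p57 KO library was above each control library, and the log2 change was 0.30 (SE 0.09, edgeR adjusted p = 0.021). Pfkm, the muscle form, had 26.7, 28.4 and 28.1 CPM in control and 30, 32.0 and 34.1 CPM in p57 KO, again without overlap, with a log2 change of 0.21 (SE 0.06, edgeR adjusted p = 0.0205). The platelet form Pfkp, at 6.86 to 7.94 CPM in control and 7.51 to 11 CPM in p57 KO, overlapped and was not called (0.33, 95% interval 0.04 to 0.61, edgeR adjusted p = 0.0868). In DESeq2 neither Pfkl (adjusted p = 0.0964) nor Pfkm (0.1) was called. Pfkl lost its edgeR call when control replicate 1 (0.117), control replicate 3 (0.0572) or p57 KO replicate 2 (0.0991) was left out. Pfkm lost it for either of these control libraries (0.0923 and 0.0536) and for p57 KO replicates 2 (0.0588) and 3 (0.12).

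In the middle of the pathway triosephosphate isomerase rose and neither aldolase was called. Aldoa, the main aldolase here, was at 252 to 270 CPM in control and 236 to 261 CPM in p57 KO (log2 fold change -0.05, 95% interval -0.13 to 0.03). Aldoc had 43.4 to 44.7 CPM in control and 38.1 to 42.4 CPM in p57 KO, without overlap, and a log2 change of -0.15 (edgeR adjusted p = 0.0573). Tpi1, which interconverts the pair of triose phosphates made by aldolase (chr6:124810586-124814296, minus strand), had 42.4, 45.7 and 41.5 CPM in control and 52.1, 50.8 and 62.1 CPM in p57 KO. All p57 KO libraries exceeded all controls, replicate 3 by the widest margin. It rose by 0.35 on the log2 scale (SE 0.07, edgeR adjusted p = 0.00381).

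Of the enzymes of the steps that yield ATP and reducing power, Pgk1 was called and Gapdh and Pkm were not. Pgam1, whose step yields neither, was not called either. Gapdh, often used as a reference gene, had 547 to 571 CPM in control and 546 to 559 CPM in p57 KO (log2 fold change -0.02, 95% interval -0.08 to 0.03). Pkm, which encodes pyruvate kinase and was the most abundant member, had 951 to 969 and 928 to 961 CPM (-0.01, 95% interval -0.07 to 0.04). Pgam1, a mutase, had 81.7 to 84.5 and 86.6 to 88.0 CPM, without overlap but not called (0.07, edgeR adjusted p = 0.204). The 95% intervals of Gapdh and Pkm lay within 0.08 on either side of 0. Pgk1, the first ATP-yielding kinase of the pathway, was at 22.1, 26.4 and 23.1 CPM in control and 26.4, 27.2 and 29.0 CPM in p57 KO. Control replicate 2 and p57 KO replicate 1 nearly met. Its log2 fold change of 0.21 (SE 0.07) had an edgeR adjusted p = 0.0451, lost in 4 of the 6 fits without 1 library (up to 0.207) and in DESeq2 (0.167).

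The enolases, which make phosphoenolpyruvate, gave the widest difference among the 35 genes. Eno2, the neuronal form, encoded at chr6:124760053-124769673 on the minus strand, was at 1.40, 2.41 and 2.30 CPM in control and 3.28, 6.03 and 7.23 CPM in p57 KO, or 23 to 41 counts against 52 to 129. The groups did not overlap, but p57 KO replicate 1 was well below replicates 2 and 3. It rose by 1.44 on the log2 scale, 2.72-fold (SE 0.32, edgeR adjusted p = 0.0113), but limma-voom gave an adjusted p of 0.0502, and edgeR without control replicate 3 gave 0.0585. Eno1, the general form, was at 185 to 191 CPM in control and 182 to 204 CPM in p57 KO (log2 fold change 0.06, 95% interval -0.02 to 0.14). Per kilobase Eno2 stood at 0.433 and 1.17 CPM per kb in control and p57 KO against 34.9 and 36.3 for Eno1, so that it remained a minor part of enolase RNA in both groups.

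At the end of the pathway Ldha, the lactate dehydrogenase subunit that favours lactate formation, was higher. It had 55.1, 60.1 and 53.8 CPM in control and 63.6, 71.3 and 78.6 CPM in p57 KO, with no overlap and the top value in p57 KO replicate 3. The log2 change was 0.34 (SE 0.08, edgeR adjusted p = 0.0122), and the call was lost when control replicate 1 (0.0765), control replicate 3 (0.0592) or p57 KO replicate 2 (0.0761) was left out. Neither lactate exporter was called. Slc16a1, the gene of MCT1, had 119 to 128 and 111 to 126 CPM (-0.03, 95% interval -0.13 to 0.06). Slc16a3, which encodes MCT4 and is a HIF target in other cells, was low, at 4 to 4.24 and 3.53 to 4.63 CPM (-0.02, 95% interval -0.36 to 0.32).

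Taken over all 16 glycolytic enzymes, 7 rose and 0 fell, with a median log2 fold change of 0.09, while 11.6% of all tested genes rose. Of the 9 rises among all members, which include these 7, DESeq2 called 5, edgeR without control replicate 3 called 3, and edgeR with the fibroblast score as a covariate called 0. The summed level of the enzymes was 3063, 3103 and 3125 CPM in control and 3084, 3180 and 3197 CPM in p57 KO, and p57 KO replicate 1 lay within the control range. Per kilobase the levels in control ran from 191 CPM per kb for Pkm, 136 for Gapdh, 94.1 for Gpi1 and 89.9 for Aldoa down to 0.541 for Pfkp and 0.433 for Eno2. Such levels are uncertain for genes with copies. Of all 76-base windows in its annotated transcripts, the length of a read here, 52.7% for Pgk1, 34.8% for Pgam1, 22.9% for Eno1, 22.5% for Gapdh, 17.5% for Pkm and 2.55% for Ldha also occur in a transcript of another gene, mostly pseudogenes. For Eno2, Pfkl and Hk2 none do. The sources used here do not say how reads that match several places were counted.

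Of the 3 regulators of flux 1 fell. Pdk1, a HIF target (chr2:71873224-71903858, plus strand), encodes a kinase that inhibits pyruvate dehydrogenase and so the use of pyruvate in the mitochondrion. It had 148, 136 and 136 CPM in control and 132, 125 and 118 CPM in p57 KO. The libraries of p57 KO were all lower. Pdk1 fell by 0.16 on the log2 scale (SE 0.04, edgeR adjusted p = 0.0105), a call lost at 0.055 when control replicate 1 was left out. Pfkfb3 and Pfkfb4 make fructose 2,6-bisphosphate, the activator of phosphofructokinase. Pfkfb3 was at 3.82 to 5.24 and 4.73 to 6.72 CPM (0.38, 95% interval 0.04 to 0.73, edgeR adjusted p = 0.102), and Pfkfb4 at 2.82 to 3.71 and 3.16 to 3.96 CPM (0.10, 95% interval -0.28 to 0.48). Both are low, and their intervals leave room for changes well above 1.2-fold.

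The smallest adjusted p among the 35 genes was that of a HIF subunit. Epas1, which encodes HIF-2alpha and lies at chr17:86753700-86833410 on the plus strand, was at 54.2, 52.0 and 52.8 CPM in control and 39.3, 35 and 34.8 CPM in p57 KO. The gap between the groups was wide compared with the spread inside each. The log2 change was -0.54 (SE 0.06, edgeR adjusted p = 4.04e-07), to 0.686 of the control level. Epas1 was called and lower under each of the 14 alternatives of processing that were run. Hif1a, the gene of HIF-1alpha, was at 86.2 to 92.2 and 88.1 to 93.9 CPM (0.04, 95% interval -0.04 to 0.12), and their shared partner Arnt at 98.4 to 107 and 101 to 104 CPM (-0.02, 95% interval -0.10 to 0.06). Among the HIF subunits that are members, the change was thus measured in Epas1, at the level of RNA. HIF alpha subunits are controlled mainly as proteins, which these data do not show. Neither prolyl hydroxylase gene was called. Egln1 (PHD2) had 37.1 to 42.2 and 39.3 to 39.8 CPM (0.0045, 95% interval -0.11 to 0.12), and the hypoxia-inducible Egln3 (PHD3) 11.6 to 11.9 and 11.5 to 12.8 CPM (0.07, 95% interval -0.13 to 0.27).

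Of 5 hypoxia targets outside glycolysis 2 rose and 1 fell. Vegfa, the gene of the main growth factor of blood vessels (chr17:46016993-46032369, minus strand), had 10.6, 11.8 and 10.9 CPM in control and 13.6, 18.3 and 20.4 CPM in p57 KO. The p57 KO libraries were all higher and also more spread. Vegfa rose by 0.66 on the log2 scale (SE 0.13, edgeR adjusted p = 0.00231). Ankrd37, an ankyrin repeat gene known as a direct HIF-1 target (chr8:45996902-46005707, minus strand), had 2.00, 1.29 and 1.60 CPM in control and 2.78, 3.90 and 3.14 CPM in p57 KO, from 22 to 33 and 44 to 64 counts. The groups were apart, and the log2 change was 1.0 (SE 0.23, edgeR adjusted p = 0.00254). Ankrd37 overlaps Ufsp2 and Lrp2bp on the other strand, and the sources used here do not state the strand setting of the counting.

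Bnip3, a mitophagy receptor and one of the most widely used HIF target genes (chr7:138890836-138909519, minus strand), went the other way, with 16.6, 15.4 and 16.6 CPM in control and 10.6, 14.4 and 12.7 CPM in p57 KO. Its p57 KO values were all lower, that of replicate 1 the lowest. The log2 change was -0.37 (SE 0.10, edgeR adjusted p = 0.0117), and the call was lost narrowly when control replicate 3 (0.0531) or p57 KO replicate 1 (0.0509) was left out. Of the Bnip3 windows of 76 bases, 34.0% occur in other annotated transcripts. Its relative Bnip3l, whose level per kilobase was 6.07 times that of Bnip3 in control, had 166 to 169 CPM in control and 159 to 163 CPM in p57 KO, without overlap but not called (-0.06, edgeR adjusted p = 0.152). Ndrg1, a stress and hypoxia gene, had 22.9 to 26.5 and 25.6 to 27.3 CPM (0.10, 95% interval -0.05 to 0.24). The collagen prolyl hydroxylase genes P4ha1 (49.6 to 52.3 and 49.6 to 56.5 CPM) and P4ha2 (39.4 to 40.2 and 41.6 to 45.9 CPM) had log2 fold changes of 0.06 and 0.13 and were not called, the groups of P4ha2 being apart.

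In all, 18 of the 35 members had groups that did not overlap, 12 higher and 6 lower, while 39.2% of all tested genes did, 19.5% higher and 19.7% lower. Comparing related genes inside each library takes the scaling out. Over 12 pairs, 5 had log2 ratios of counts whose groups did not overlap. Epas1 to Hif1a went from -0.75 ± 0.07 to -1.34 ± 0.15 (SD, n = 3 in each group), Eno2 to Eno1 from -6.54 ± 0.42 to -5.21 ± 0.51, Bnip3l to Bnip3 from 3.37 ± 0.07 to 3.69 ± 0.24, Slc2a3 to Slc2a1 from -0.71 ± 0.03 to -0.46 ± 0.12, and Hk2 to Hk1 from 0.65 ± 0.04 to 0.56 ± 0.05. The shift away from Epas1 was 0.59 and that towards Eno2 was 1.33 on the log2 scale. An exact two-sided permutation test gave p = 0.1 for each of these 5 pairs, the smallest that 3 against 3 libraries allow, and 0.24 after adjustment over the 12 pairs. The ratios of Pfkl and Pfkm to Pfkp, Aldoc to Aldoa, Slc16a3 to Slc16a1, P4ha2 to P4ha1, Pfkfb4 to Pfkfb3 and Egln3 to Egln1 overlapped between the groups.

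Several of the rises moved with the fibroblast score. Eno2, Vegfa, Ldha, Pfkm and Pgk1 had their lowest p57 KO value in replicate 1 and their highest in replicate 3, as the score did. With the score as a covariate in edgeR, the log2 fold change went to 0.25 for Eno2 (SE 0.34, adjusted p = 0.821), 0.08 for Vegfa (SE 0.17, 0.907), 0.01 for Ldha (SE 0.08, 0.983), 0.07 for Tpi1 (SE 0.10, 0.84), 0.03 for Pfkm (SE 0.12, 0.958) and -0.03 for Pgk1 (SE 0.13, 0.956). Pdk1 also lost its fall, at 0.01 (SE 0.07, adjusted p = 0.975). The value of Ankrd37 was about as large, at 1.03, but with a wider error and no call (SE 0.40, adjusted p = 0.187), as was that of Hk1 at 0.10 (SE 0.08, adjusted p = 0.634). Pfkl went from 0.30 to 0.21 and lost its call (SE 0.17, adjusted p = 0.645). Bnip3 was not called either, at -0.48 (SE 0.19, adjusted p = 0.176).

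Among members called in both models were Epas1, with -0.38 (SE 0.10, edgeR adjusted p = 0.0246), and Slc2a1, with -0.34 (SE 0.08, 0.0139). Slc16a1 was called lower with the score, at -0.25 (SE 0.07, edgeR adjusted p = 0.0246), and not without it. In that model 3 of the 35 members were called, none higher, and 2.69% of all tested genes were. The score did not overlap between the groups, so that the model has little to tell group and score apart in 6 libraries. Whether fibroblasts or feeder cells supplied RNA of these genes was not tested.

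**Figure D3:**
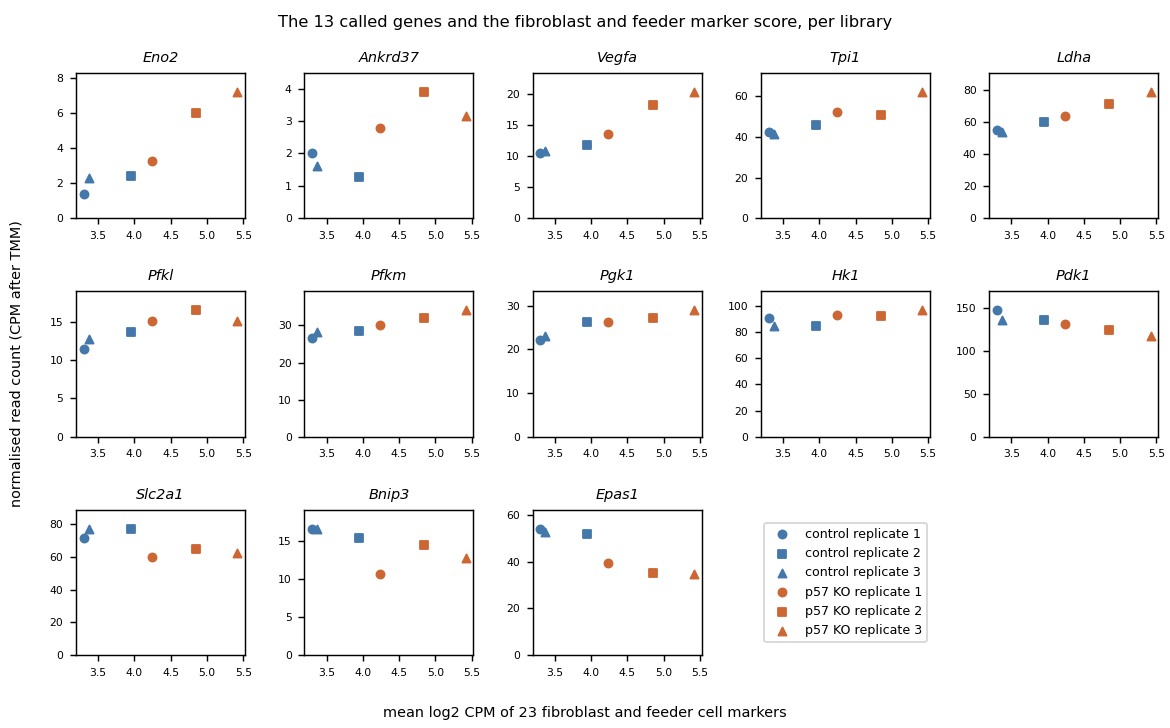
Normalised read count of each of the 13 called members (vertical axes, from 0) against the fibroblast score of the library (horizontal axes, mean log2 CPM of 23 markers), control in blue and p57 KO in orange. Eno2, Vegfa and Ldha are highest in p57 KO replicate 3, where the score is 5.42, while Epas1 and Slc2a1 are low in all 3 p57 KO libraries and Bnip3 is lowest in replicate 1, where the score is 4.24.

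**Figure D4:**
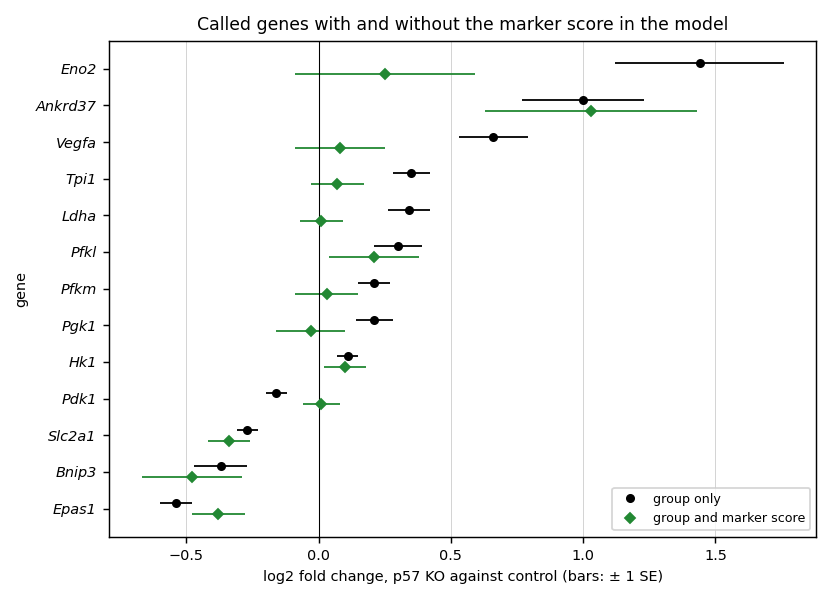
Log2 fold change of the 13 called members with the group alone in the model (black circles) and with group and fibroblast score (green diamonds), bars showing 1 SE. The values of Eno2, Vegfa, Tpi1, Ldha, Pfkm, Pgk1 and Pdk1 move to between -0.03 and 0.25, and those of Pfkl and Hk1 to 0.21 and 0.10. Ankrd37 has 1.03, Bnip3 -0.48, Slc2a1 -0.34 and Epas1 -0.38 with the score, against 1.0, -0.37, -0.27 and -0.54 without it, and of the 13 only Slc2a1 and Epas1 are still called.

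Other genes of sugar and pyruvate use were read from a list of 46, of which 36 were tested. In p57 KO 6 rose and 6 fell, with a median log2 fold change of -0.06, and 33.3% were called against the 23.3% of all genes. Mpc2, a subunit of the carrier that brings pyruvate into the mitochondrion, was at 93.2, 87.4 and 96.1 CPM in control and 72.4, 76.5 and 70.4 CPM in p57 KO, without overlap, and had a log2 change of -0.34 (SE 0.04, edgeR adjusted p = 9.14e-06). Pdk4, another pyruvate dehydrogenase kinase, rose from low levels, 0.703 to 1.18 CPM, to 2.21 to 4.59 CPM (1.87, SE 0.31, edgeR adjusted p = 0.000237), in the opposite direction to Pdk1. Ldhb, the heart-type lactate dehydrogenase subunit, rose with Ldha, from 10.4 to 12 CPM to 14.3 to 18.8 CPM (0.56, SE 0.10, edgeR adjusted p = 0.000486). Smaller falls were those of the glycogen phosphorylase gene Pygb (-0.14, edgeR adjusted p = 0.00132) and of Taldo1, of the pentose phosphate pathway (-0.11, 0.00803), while the urate and sugar transporter gene Slc2a9 rose by 1.34 (0.00183) from a control mean of 0.872 ± 0.147 CPM to 2.23 ± 0.635 CPM (SD, n = 3). With the fibroblast score as a covariate Slc2a9 was called, at 1.76 (edgeR adjusted p = 0.0358), and Mpc2 (-0.24, 0.11), Pdk4 (0.58, 0.619), Ldhb (0.19, 0.706), Pygb (-0.07, 0.638) and Taldo1 (-0.10, 0.466) were not.

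A second list held 58 other HIF regulators and targets found in the count table, of which 55 were tested. It again gave no common direction: 9 rose and 10 fell, with a median log2 fold change of 0.04, and 34.5% were called. Ddit4, the hypoxia and p53 target that encodes the mTORC1 inhibitor REDD1, rose from 48.8, 50.4 and 51.4 CPM to 105, 103 and 108 CPM (1.07, SE 0.04, edgeR adjusted p = 8.58e-14). Control and p57 KO lay far apart in every library, and the log2 change was 1.02 (edgeR adjusted p = 1.57e-13) after adding the fibroblast score. Arntl, the clock factor BMAL1 and a relative of ARNT, had -0.41 (SE 0.05, edgeR adjusted p = 4.98e-06). Cited2, which competes with HIF for the coactivator p300, had -0.31 (adjusted p = 0.000147), the mitochondrial adenylate kinase gene Ak4 -0.22 (0.000279) and the transferrin receptor gene Tfrc -0.15 (0.000877), all in edgeR. Of the last 4 none was called with the score, where Arntl had -0.30 (edgeR adjusted p = 0.0788), Cited2 -0.24 (0.219), Ak4 -0.14 (0.37) and Tfrc -0.16 (0.115).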

How the data were processed

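The authors deposited raw counts per gene for 6 libraries. Per the submitters' processing notes, the reads were handled with HISAT2 2.2.1 and HTSeq 2.0.2 on mm10, after cutadapt 3.4 and bcl2fastq 2.20. The sources used here do not name the annotation, the strand setting or the rule for reads with several matches. From these counts, edgeR 4.0.16 (limma 3.58.1, R 4.3.3) fitted all 14814 genes that passed filterByExpr, with TMM scaling, the group as the only term, robust quasi-likelihood F-tests and Benjamini-Hochberg adjustment over all tested genes, and a gene was called at an adjusted p under 0.05. SEs were taken from the F statistic, and intervals are 95%. Total counts were 15662833 to 17893671. The common biological coefficient of variation was 4.35%. On simulated data for this comparison (14814 genes, 200 changed) the fit recovered 34.4% of genes changed 1.2-fold, 74.3% of 1.5-fold and 90.9% of 2-fold. It made 16 false calls among 150, a share above the threshold of 0.05. Far fewer genes were changed there than the 3450 called in the data, so the recovery in the data may differ. Replicate pairs differed by more than sampling noise (chi-square per degree of freedom 1.69 to 5.97), so none was counted as a duplicate. Positions, exon lengths and transcript windows came from GENCODE M21 (mm10), matched by gene identifier. The ratios within pairs had 0.5 counts added. Named were Cdkn1c, all members, and up to 6 called genes of smallest p with a mean of at least 1 CPM from each list of other genes. One gene that this rule names is not reported here. Members and lists were chosen with earlier results of these data known. Alternatives were RLE factors, DESeq2 1.42.0, limma-voom, no filter, a minimum of 1 CPM in 3 libraries, a block for replicate numbers, leaving out each library, a test against a fold of 1.2, and the fibroblast score as a covariate.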

Additional observations from a re-analysis of the deposited data

How the results depend on the processing

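Against the 9 members that rose and the 4 that fell, DESeq2 called 5 higher, a test against a fold of 1.2 called 2 higher (Ankrd37 and Vegfa) and 1 lower (Epas1), and the fibroblast score as a covariate left 0 higher. Leaving out 1 library gave 3 to 12 higher and 3 to 4 lower: 3 higher when control replicate 3 was left out, 5 for control replicate 1, 4 for p57 KO replicate 2 and 12 for p57 KO replicate 1. RLE factors, no filter, the stricter filter and the replicate block changed no call among the 35. With the score, Pgk1 turned to -0.031 and Pdk1 to 0.009. The other glycolysis genes (6 higher, 6 lower) went to 3 and 0 at a fold of 1.2, to 1 and 0 with the score, and to 4 to 8 and 3 to 7 without 1 library. The other hypoxia genes (9 higher, 10 lower) went to 5 and 1 at a fold of 1.2, to 1 and 0 with the score, to 14 higher with no filter, and to 7 to 15 and 6 to 9 without 1 library. Over all genes 3450 were called, 469 at a fold of 1.2, 398 with the score and 2358 to 4029 without 1 library. Deviations from the group means had correlations of 0.19, 0.02 and -0.10 in same-numbered libraries and -0.28 to 0.27 in the others. So few libraries cannot show whether the numbers pair them. The replicate block raised the other hypoxia genes called higher to 14 and the genes called over all to 3706. Where an alternative changed a call, the cause was not tested. Low counts limit Eno2, Ankrd37, Slc16a3, Pfkfb3 and Pfkfb4.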

Other observations

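Of 8 genes of sugar use known from haploid germ cells, 4 passed the filter on low counts and 1 of them was called. That is 25.0%, near the 23.3% of all tested genes. Gapdhs had 0 to 2 counts per library, Aldoart1 0 to 1, Aldoart2 0 to 5 and Pgk2 0 to 9. Eno4, an enolase of sperm, had 84 to 86 counts in control and 73 to 116 in p57 KO, and the fructose transporter gene Slc2a5 43 to 57 and 49 to 55, with overlapping groups. The sperm lactate dehydrogenase gene Ldhc had 47 to 54 counts in control and 59 to 64 in p57 KO (log2 fold change 0.26, edgeR adjusted p = 0.325). Ldhal6b, a retrogene of the same family, rose from 13 to 24 counts to 28 to 44 counts (0.86, SE 0.27, edgeR adjusted p = 0.0257), and had 0.21 (0.909) with the fibroblast score in the model. Its call was lost in 4 of the 6 edgeR fits without 1 library (adjusted p up to 0.139). Ldhal6b overlaps Tmem242 on the same strand, and whether reads of Tmem242 were counted for it was not tested.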
